A study of Mus musculus with 28 samples.

Results

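Total polysome RNA from testes of GRTH knockout (KO) and wild-type (WT) mice was compared on 6 of the 28 one-colour expression arrays of the series, those titled as total testicular polysome of either genotype. GRTH, gonadotropin-regulated testicular RNA helicase, is the product of Ddx25. Both groups were adult male C57BL/6 mice, and the genotype, WT or GRTH-/-, was the only labelled difference between them. Each genotype had 3 arrays. The labels do not say whether the 3 came from separate animals, from pooled testes or from one preparation, so the p-values reflect how far these 3 arrays varied, and that variation could be technical alone. Germ cells and somatic cells were not separated before polysomes were collected on sucrose gradients. Of 18193 genes with a probe set, the 9097 at or above the median signal of the 6 arrays were tested. The arrays hold signals for probe sets, short groups of probes that read one part of a transcript.

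GRTH is a DEAD-box helicase of germ cells and Leydig cells that binds RNA and moves between nucleus and cytoplasm. Round spermatids transcribe many genes long before their products are made; the messages are stored as ribonucleoproteins and are loaded onto ribosomes only when the spermatid elongates, when transcription has stopped. Male mice without the helicase are known to be sterile, with spermatids arrested before they elongate. This comparison asks which messages differ in amount in testis polysome RNA without the helicase.

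The 6 arrays differed in the scale on which they had been deposited. WT array 3 and KO array 3 had a trimmed mean of 500, as did the other arrays of the series, whereas WT arrays 1 and 2 had 167.82 and 54.54 and KO arrays 1 and 2 had 129.97 and 29.75. All were brought to 500, by factors of up to 16.805 for KO array 2. After this, arrays of one genotype correlated with r from 0.893 to 0.95 across probe sets (log2 scale), and actin 3' to 5' ratios, a sign of RNA integrity, ran from 1.64 to 1.82 in WT and from 1.57 to 2.09 in KO, so the genotypes overlapped. The free-text descriptions of 3 arrays go against their titles: those of WT arrays 1 and 2 name an IgG precipitate and that of KO array 1 names WT. The titles were followed. Signals below are rescaled intensities, given array by array in the order 1, 2, 3, differences are KO minus WT of log2(signal + 16) with their standard error, and every adjusted p is limma's with Benjamini-Hochberg adjustment (threshold 0.05). The offset of 16 makes folds of dim genes too small.

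The polysome RNA of the knockout was poorer in one large, bright class of transcripts. Of the 9097 genes, 577 passed the test (6.34%): 525 fell (5.77%) and 52 rose (0.572%). The falls were also larger. At least 2-fold falls numbered 480, at least 4-fold 153 and at least 8-fold 23, while 40 genes rose at least 2-fold and none of the 52 rose 4-fold. The median of the fallen genes was -1.56, with -1.29, -1.59 and -1.85 in pairs of arrays of the same number. The risen genes had a median of 1.09 and pair medians of 0.96, 1.03 and 1.25.

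The median over all genes tested was 0.13, so a gene at 0 lay slightly below the bulk; it was -0.01 when the arrays were centred on their medians and 0.08 after quantile normalization. The rises depend on this: 27 genes rose with median centring. Arrays of the same number deviated together. This pairing comes from the same data and not from the labels, so p-values with the block may be too small. With the replicate number as a block, 2248 genes passed (24.7%), 1173 higher (12.9%) and 1075 lower (11.8%), and the 577 were among them. All block counts of gene lists below stand against these shares, and the other list counts against 5.77% lower and 0.572% higher. The lists and markers were chosen with earlier results of these data known, so their counts against these shares may be partly built in. The signals of the 2 genotypes did not overlap in 2398 genes (26.4%), 1231 with KO higher (13.5%) and 1167 with KO lower (12.8%). All 525 fallen and all 52 risen genes were among them, so a lack of overlap adds nothing to the call of a gene named below. Leaving out an array moved the rises most. There were 212 rises without WT array 2, and 11, 25, 16, 15 and 17 without WT array 1, WT array 3, KO array 1, KO array 2 and KO array 3, while falls numbered 367 to 506 over these 6 settings. The total was 383 without WT array 1 and 384 without KO array 3. Without the 3 arrays of conflicting description 294 genes passed, 41 higher and 253 lower, and on the deposited scale, with 4 arrays unscaled, limma called 0 genes, with 72 at an unadjusted p under 0.05.

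Falls were concentrated among abundant messages. When genes were divided into 5 equal groups by WT signal, 297 of the 1820 brightest fell (16.3%) and 0 rose, and of the 1820 dimmest 2 fell and 23 rose. The filter contributes to the dim end, because a gene with a low WT signal passed it only if the KO signal was high enough. The WT signal is also one side of the difference itself. The 525 genes held 12.4%, 14.2% and 14% of the summed signal on the 3 WT arrays and 4.85%, 4.24% and 3.81% on the KO arrays. The genotypes were thus far apart on this measure, which follows from how the genes were chosen.

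**Figure D1:**
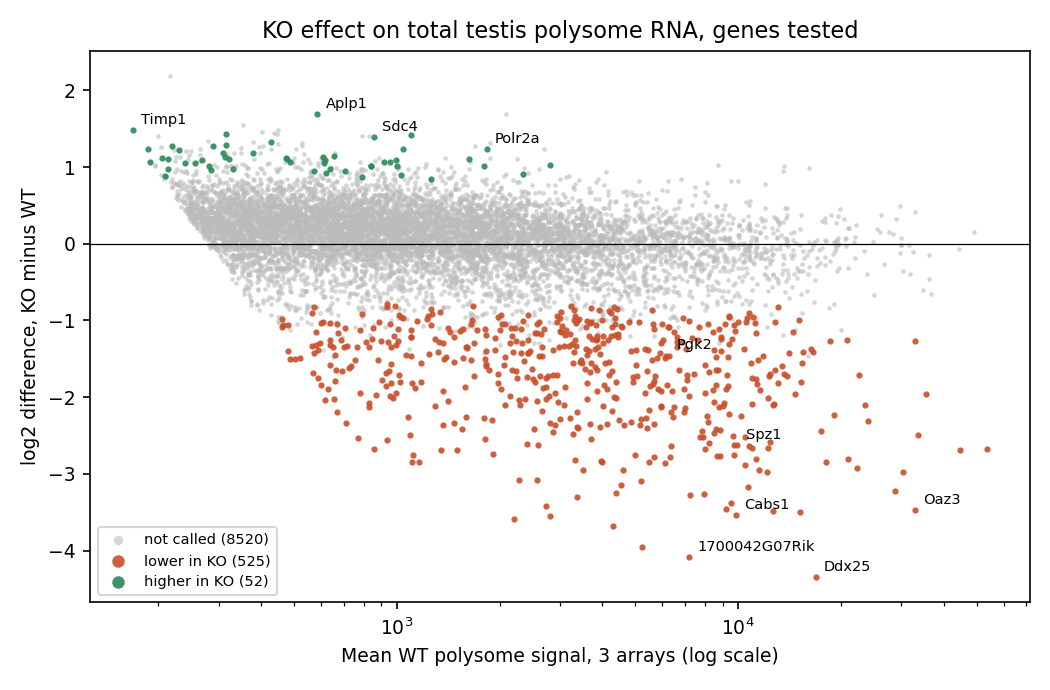
Log2 difference between KO and WT polysome RNA (3 arrays each) against the mean WT signal on a log axis, one point per gene tested. The 525 genes called lower spread to -4.35 and reach the brightest signals, while the 52 called higher stay at or below 1.69.

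Ddx25 itself read 14833, 21149 and 14624 in WT polysome RNA and 1063, 598.3 and 805.2 in KO. The genotypes were far apart, and KO array 1, whose description names WT, lay with the other KO arrays. The difference was -4.35 ± 0.27 (adjusted p = 0.00017), leaving 4.87% of the WT signal. Whether this probe set lies within the deleted part of the gene was not stated in the labels; a probe set outside it would check no label. Ddx25 was the one member of 30 tested genes with a Ddx symbol, the DEAD-box helicases, that fell (5 others rose with the block).

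After Ddx25, the 2 deepest falls belonged to transcripts with no established name. 1700042G07Rik read 6786, 7614 and 7151 in WT and 397.8, 392.6 and 426.4 in KO. Both groups were tight, and nothing lay between them. Its difference was -4.09 ± 0.19 (adjusted p = 3.50e-05), a 17.1-fold fall. 1700012A03Rik changed by -3.95 ± 0.26, from 4745, 5852 and 5102 to 395, 388.2 and 217.1. 1700020A23Rik (-3.59 ± 0.38) and 1700015G11Rik (-3.55 ± 0.32) were of the same order. Lrrc57, a leucine-rich repeat gene, read -3.68 ± 0.27, whereas the second probe set gave 0.03 (adjusted p = 0.957), so the 2 parts of the annotated gene did not move together. Among 321 genes that still carry a RIKEN clone name, 69 fell (21.5%, against 5.77% of all genes tested) and 1 rose (121 and 13 with the block).

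Genes that pack the spermatid nucleus fell together. During elongation histones are replaced by transition proteins and then by protamines, small basic proteins that compact sperm DNA. Of 13 such genes tested, 11 fell and 0 rose, with a list median of -2.50 and pair medians of -1.70, -2.53 and -2.73. H2bl1, a testis histone H2B variant, read 3526, 5540 and 2794 in WT and 528.8, 649.4 and 408.8 in KO. No KO array came near the lowest WT array, and the difference was -2.83 ± 0.29 (adjusted p = 0.000576). H2al2a, a short histone variant that acts with the transition proteins, changed by -3.38 ± 0.28, and Prm3, encoded in the protamine cluster, fell 11.3-fold (adjusted p = 0.000413). Hmgb4, an HMG-box protein of spermatids, fell by 2.59 ± 0.24, from 11570, 12870 and 12868 to 2613, 2217 and 1495.

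The marker list of elongating spermatids, which shares genes with the nuclear and tail lists, moved with these groups. The list was chosen with earlier results of these data known, so its count may be partly built in. All 17 of its tested genes fell, with a median of -2.92. Their summed signal was 262631 to 504153 on the WT arrays and 37288 to 67063 on the KO arrays, and no marker was at 0. In RNA from whole testis, fewer cells of a type and less RNA per cell cannot be told apart. Among 12 round spermatid markers, 2 fell, and the median was -0.48 (6 fell with the block). Their sum ran from 88933 to 122522 in WT and from 64963 to 72527 in KO, and of the pair that fell, Cby2 changed by -2.51 ± 0.28 and Tssk2 by -2.13 ± 0.28.

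The sperm tail gave uneven counts. The fibrous sheath and outer dense fibres wrap the flagellum, while the axoneme is its microtubule core. Of 16 sheath and fibre genes 10 fell, with a median of -0.84, and leaving out any one array left 5 to 7, and the unscaled arrays alone 4. In the axoneme list 0 of 28 genes passed, and its median of -0.04 turned to 0.09 after quantile normalization. Odf1, the main protein of the fibres, read 18385, 32847 and 15714 in WT and 3116, 3382 and 2044 in KO. The lowest WT array was several times the highest KO array. Its difference was -2.92 ± 0.32 (adjusted p = 0.000711), and both other probe sets fell, at -4.01 and -2.77. Akap4, the scaffold of the sheath, changed by -2.13 ± 0.22, and Cabs1, a calcium-binding protein of the tail, by -3.54 ± 0.22.

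Odf2, a scaffold of fibres and centrosomes, was less uniform. It read 13414, 20827 and 15337 against 6042, 6633 and 5673 (-1.41 ± 0.23, adjusted p = 0.00516), and a second probe set gave -1.40. The other 3 read 0.03, 0.19 and -0.41. When the gene was read on each array by the median of its probe sets before the fit, the difference was 0.19 (adjusted p = 0.755), the opposite direction. Among axoneme genes the smallest adjusted p was that of Meig1, a factor of manchette transport, at -0.66 ± 0.22 (adjusted p = 0.139). Tekt5, a tektin, read -0.82 ± 0.28 and Cfap69 -0.96 ± 0.33, neither past the threshold, and Cfap65 was on the other side at 0.61 ± 0.27. With the block, 2 axoneme genes rose and 3 fell, and leaving out any one array gave at most 1 fall.

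Among genes of the mitochondrial sheath and sperm head, 26 were tested, of which 11 fell and 0 rose, and 17 fell with the block. Smcp, the cysteine-rich protein of the mitochondrial capsule, fell from 21461, 38366 and 26468 to 3248, 3699 and 2197 (-3.22 ± 0.29, adjusted p = 0.000413). Spata19, a mitochondrial protein of the midpiece, read 7617, 9182 and 9821 in WT and 1814, 1940 and 1218 in KO. No array overlapped for either gene, and Spata19 fell by 2.43 ± 0.24 (adjusted p = 0.00053). Lelp1 (-3.30 ± 0.28) and Spata3 (-3.17 ± 0.29) also fell, and the 2 other probe sets of Spata3 gave -3.18 and -3.73.

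Among 18 kinases and phosphatases of spermatids, 6 fell and 1 rose (5.77% and 0.572% over all genes tested). With the block 9 fell and 1 rose (11.8% and 12.9% over all genes tested). Tssk6 and Tssk3, testis-specific serine kinases, changed by -3.49 ± 0.34 and -3.46 ± 0.32, the latter with -1.87 when read by the median of its probe sets. Ppp2r2b, a regulatory subunit of phosphatase 2A, fell by 3.42 ± 0.33. Tssk5, of the same kinase family and named after its values were seen, moved the other way, from 257.9, 282.9 and 306 in WT to 705.9, 594.6 and 484.2 in KO. Its genotypes did not overlap either. The rise was 1.02 ± 0.21 (adjusted p = 0.0208), and it did not pass without WT array 1, KO array 1 or KO array 2 (adjusted p up to 0.103).

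Of 33 acrosome and egg-binding genes 4 fell (5.77% over all genes tested), and the list median was -0.30. With the block 13 fell and 1 rose, against 11.8% and 12.9% of all genes tested. The 4 were Adam25 (-2.67 ± 0.23) and Prss55 (-1.55 ± 0.27), both sperm surface proteins, Calr3, a chaperone needed for sperm adhesion proteins (-1.70 ± 0.31), and Crisp2, a cysteine-rich protein of acrosome and tail (-1.37 ± 0.25). Crisp2 read 11637, 19779 and 17757 in WT and 5167, 6755 and 6681 in KO, without overlap. Its call was lost without KO array 1 (adjusted p = 0.0606), and 1 of 2 other probe sets of Calr3 read 0.69 (adjusted p = 0.236).

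Ion transport and signalling genes of sperm showed 3 falls among 15, against 5.77% of all genes tested, and 1 to 3 without any one array. With the block 5 fell, against 11.8% of all genes tested. Atp1a4, the sodium pump subunit of sperm, fell from 3248, 6601 and 3288 to 1118, 1080 and 865.6 (-2.01 ± 0.30, adjusted p = 0.00354). Slc16a7, a lactate and pyruvate carrier, fell by 1.08 ± 0.21, a call lost without KO array 1 or 2 (adjusted p = 0.0753 and 0.0662). Adcy10, the bicarbonate-sensitive adenylyl cyclase, fell by 0.84 ± 0.20 (adjusted p = 0.0413); its call held when WT array 2 was left out and was lost without any one of the other 5 (adjusted p up to 0.142). Slc22a16, a carnitine carrier, read -0.71 ± 0.21 and did not pass (adjusted p = 0.0855).

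Of 22 energy metabolism genes 6 fell, and 10 with the block. Oxct2a, the ketone-body enzyme of spermatids, read 11159, 19049 and 6490 in WT and 2446, 1890 and 1148 in KO. The WT arrays differed almost as much among themselves as the lowest of them did from the KO arrays, and the difference was -2.66 ± 0.41 (adjusted p = 0.00402). Gapdhs, the glycolytic dehydrogenase of sperm, was spread likewise, with WT signals of 16172, 35257 and 11358 and KO signals of 3293, 3283 and 1702 (-2.81 ± 0.42). Acsbg2, an acyl-CoA synthetase, was tight at 3413, 3499 and 3211 in WT and fell by 2.19 ± 0.27. Gpd2, the mitochondrial glycerol phosphate dehydrogenase, fell by 1.70 ± 0.21.

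In the ubiquitin system 15 of 38 genes fell and 0 rose (5.77% and 0.572% over all genes tested), and the list median was -0.32. Of 32 proteasome subunits 0 passed in either direction, also with the block, and their median of 0.10 read -0.03 with median centring. Rnf133, a ubiquitin ligase of spermatids, fell from 6444, 7752 and 7451 to 891.4, 773.6 and 557.4 (-3.28 ± 0.23, adjusted p = 0.000316). Otub2, a deubiquitinase, read 8432, 10340 and 10450 in WT and 1712, 1661 and 1019 in KO. Both genes were separated by genotype on every array. Otub2 fell by 2.75 ± 0.25, with -0.87 (adjusted p = 0.141) at its other probe set. Ubl4b, a ubiquitin-like protein of late spermatids, changed by -2.75 ± 0.28, with -2.13 at its other probe set. Ube2j1, a conjugating enzyme of the endoplasmic reticulum, gave -2.12 ± 0.21 at one probe set and -0.00 at the other. The proteasome genes nearest the threshold were Psmb2 (0.40 ± 0.21, adjusted p = 0.336) and Psma6 (-0.44 ± 0.25, adjusted p = 0.366).

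**Figure D2:**
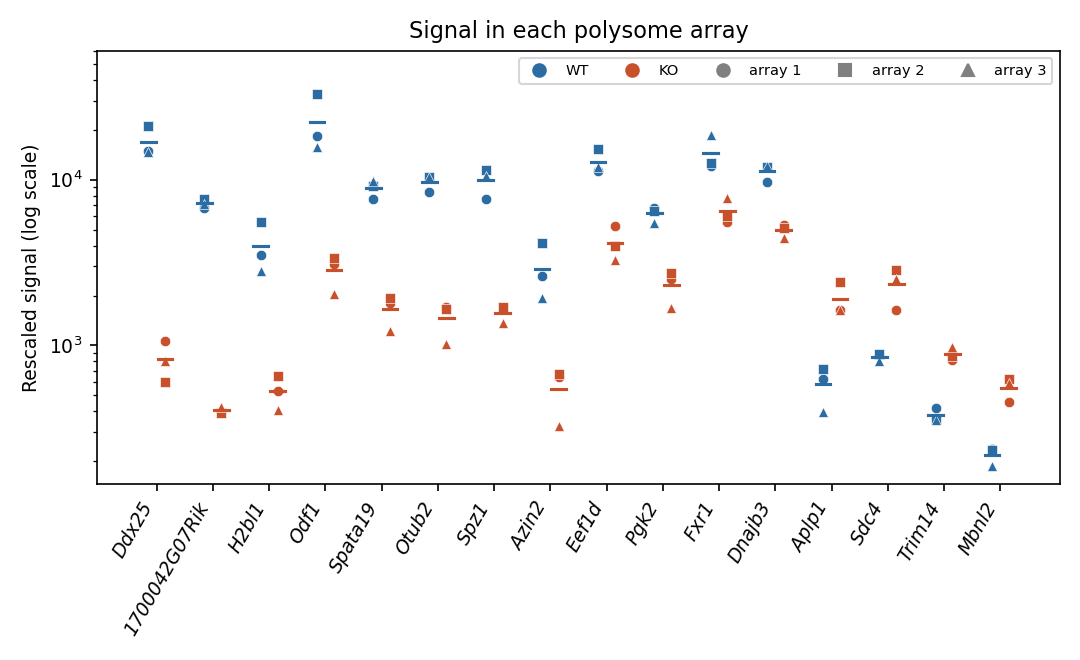
Rescaled signal of 16 genes on each polysome array on a log axis, with circles, squares and triangles for arrays 1, 2 and 3 and a bar at the mean of each genotype (blue WT, orange KO). The genotypes do not overlap for any of the 16, from Ddx25, at 14624 or more in WT and 1063 or less in KO, to Mbnl2 on the side of the rises. All 525 fallen and all 52 risen genes share this, against 26.4% of all genes tested.

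Of 22 transcription regulators of spermatids 3 fell, 8 with the block, beside 1 rise, and 3 to 5 without any one array. Spz1, a basic helix-loop-helix factor of the testis, read 7697, 11520 and 10591 in WT and 1669, 1707 and 1356 in KO, a wide gap. It fell by 2.63 ± 0.23 (adjusted p = 0.000413). Fhl5, the co-activator of the spermatid factor CREM, fell by 2.44 ± 0.25, from 8437, 7180 and 7831 to 1936, 1394 and 1063, and Kif17, a motor that carries Fhl5 out of the nucleus, by 1.51 ± 0.23. Sox5 read -0.80 ± 0.22 and did not pass (adjusted p = 0.0757). Other probe sets of Kif17 read -1.28 and -0.89.

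RNA-binding and translation regulators of germ cells had a median near that of all genes. Ddx25 aside, 2 of the 44 fell and 0 rose, with a list median of 0.06 that read -0.07 with median centring; the block added 4 rises. Fxr1, an RNA-binding protein that activates stored spermatid messages, read 12176, 12609 and 18554 in WT and 5540, 6041 and 7750 in KO. The groups did not overlap and the difference was -1.15 ± 0.24 (adjusted p = 0.022). Its other probe set read 0.24, and the call was lost without WT array 1 or 3 or KO array 1 or 2 (adjusted p up to 0.104). Cpeb3, a cytoplasmic polyadenylation factor, fell by 1.48 ± 0.28, while its other probe sets read -0.39 and 0.02; without KO array 3 its adjusted p was 0.0503. Tsnax, a partner of translin, read 0.53 ± 0.22 without passing.

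In 25 genes of piRNAs and the chromatoid body, the cytoplasmic granule where the helicase resides, none passed in either direction. With the block 4 of these 25 rose and 1 fell, against 12.9% and 11.8% of all genes tested. Over all genes 1748 had an unadjusted p under 0.05 without the block. Piwil2, an Argonaute protein of piRNAs, read 2903, 2409 and 1942 in WT and 4555, 3648 and 2806 in KO (0.59 ± 0.25, adjusted p = 0.245), with overlapping groups. Their median of 0.08 turned to -0.06 with median centring.

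Genes of earlier germ cell stages were counted against the same background of 6.34%. Of 27 meiosis and recombination genes 1 fell, Syce2, a synaptonemal complex protein, from 9826, 11398 and 11051 to 5398, 5577 and 6293. Each group was tight, and the change was -0.90 ± 0.19 (adjusted p = 0.0234), yet the call held only without WT array 2 (adjusted p up to 0.104 otherwise). Syce3, of the same complex, read -0.55 ± 0.23 (adjusted p = 0.243). None of 20 genes of the meiotic divisions passed (2 rose and 1 fell with the block), with Bub1b, a spindle checkpoint kinase, highest at 0.70 ± 0.22 (adjusted p = 0.118). Among 13 spermatocyte markers 1 fell, Pgk2, the phosphoglycerate kinase of meiotic and later germ cells, which read 6775, 6481 and 5507 in WT and 2518, 2740 and 1670 in KO (-1.46 ± 0.24, adjusted p = 0.00625). The summed signal of that list was 74761 to 129309 in WT and 81100 to 144501 in KO.

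In 12 genes of spermatogonia and early germ cells 0 passed at the probe set that stands for the gene, the median was 0.22, and 3 rose with the block. Ccnd2, a cyclin of dividing spermatogonia, read 479.8, 443.1 and 270.3 in WT and 1278, 807.7 and 692.1 in KO. All KO arrays were above all WT arrays, and the difference was 1.18 ± 0.30 (adjusted p = 0.054; 0.00028 with the block). Of its 3 other probe sets 1 passed, at 1.41 (adjusted p = 0.0162), and the others read 1.14 and 0.83. Kit, the stem cell factor receptor, read 0.94 ± 0.25 (adjusted p = 0.0642). All 10 spermatogonium markers measured, 7 of them bright enough to be tested, summed to 6013 to 11770 in WT and 9858 to 12562 in KO.

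Of 28 chaperone genes tested, 6 fell and 0 rose (5.77% and 0.572% over all genes tested). With the block 9 fell and 1 rose (11.8% and 12.9% over all genes tested). The list median of 0.02 read -0.11 with median centring. Hspa1l, the spermatid member of the Hsp70 family, fell by 2.64 ± 0.26. Bag1, a co-chaperone of Hsp70, read 7911, 6251 and 10508 in WT and 2604, 2503 and 2451 in KO. The KO arrays were nearly alike and all lower, and the fall was 1.67 ± 0.23 (adjusted p = 0.00254). Hspb9, a small heat shock protein of the testis, fell by 1.64 ± 0.29 and Dnajb3 by 1.17 ± 0.20, from 9742, 11991 and 12032 to 5345, 5142 and 4448.

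Of 9 polyamine genes, 2 fell, and the list median of -0.03 turned to 0.03 after quantile normalization. These were Oaz3, the spermatid antizyme, at -3.47 ± 0.34 and -3.14 at its other probe set, and Azin2, the antizyme inhibitor of the testis. Azin2 read 2611, 4153 and 1936 in WT and 647.4, 675.9 and 324.8 in KO, without overlap, and fell by 2.36 ± 0.36 (adjusted p = 0.00375). Odc1, the ornithine decarboxylase that both regulate, read -0.64 ± 0.19 (adjusted p = 0.088; 0.0125 with the block).

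None of 40 cytosolic ribosomal protein genes passed, 2 rose and 1 fell with the block, and the list median was 0.16. The summed signal of all 46 measured, 364764 to 468769 in WT and 385234 to 476649 in KO, overlapped. Rpl41 had the smallest adjusted p among them (-1.12 ± 0.34, adjusted p = 0.105). Of 41 translation factors 1 fell, Eef1d, a subunit of the elongation factor exchange complex, which read 11345, 15267 and 11881 in WT and 5240, 3970 and 3259 in KO (-1.64 ± 0.24, adjusted p = 0.00346). The gap was clear at this probe set, a second one read -1.90, and the fit on the median of the gene's probe sets on each array gave -0.79 (adjusted p = 0.203). Etf1, the termination factor, read -0.93 ± 0.25 (adjusted p = 0.0602), with another probe set at 0.38. None of 47 respiratory chain genes passed, their median of 0.03 read -0.10 with median centring, and Ndufa4 came closest at 0.76 ± 0.22 (adjusted p = 0.0817). The block gave 2 rises and 2 falls in that list.

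**Figure D3:**
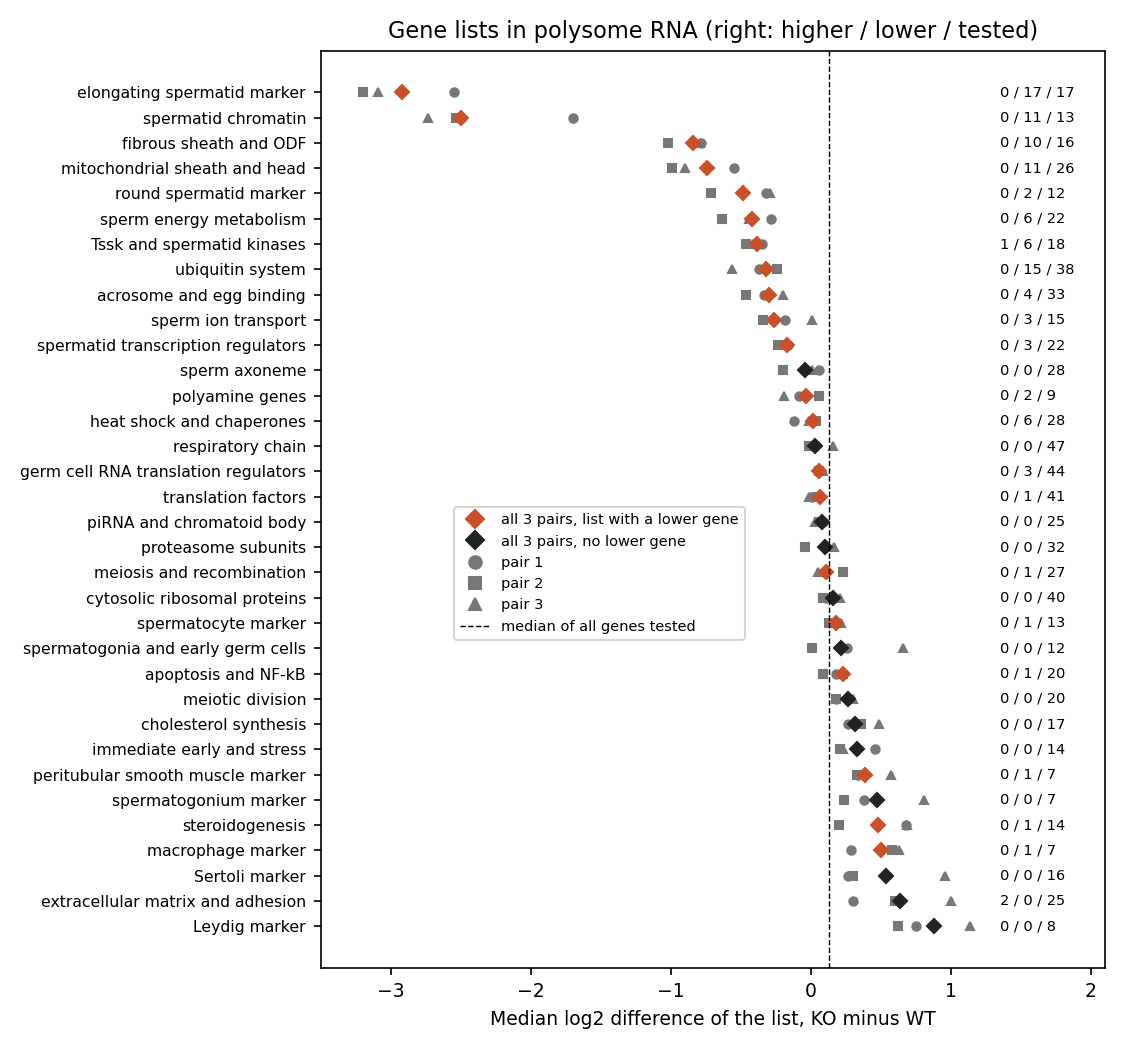
Median log2 difference of each gene list with 5 or more tested genes (diamonds), with the median in each pair of arrays of the same number (grey symbols); numbers at the right give genes higher, lower and tested, and the dashed line is the median of all genes at 0.13. Lists of elongating spermatids, at -2.92, and spermatid chromatin, at -2.50, lie far to the left, and the Leydig marker list is farthest to the right at 0.88.

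The 52 rises were smaller and came from genes dimmer in WT, which follows in part from the filter and from the choice by difference. Aplp1, an amyloid precursor-like membrane protein, read 630.2, 722.4 and 397.6 in WT and 1633, 2423 and 1640 in KO. All KO arrays were well above all WT arrays, and the rise was 1.69 ± 0.28 (adjusted p = 0.00589). Sdc4, a heparan sulfate proteoglycan of the cell surface, was steady in WT at 876.3, 883.2 and 809 and read 1628, 2855 and 2519 in KO (1.39 ± 0.25, adjusted p = 0.00893), with 0.56 (adjusted p = 0.659) at its other probe set. Mbnl2, a splicing regulator, rose from 236, 233.8 and 188.1 to 452.9, 625.3 and 591.7 (1.28 ± 0.22). These groups were again separate, though the other probe sets of Mbnl2 read 0.51 and 0.45 without passing. Trim14, a tripartite motif protein of innate immunity, rose from 416.4, 362 and 355.8 to 812.9, 865.5 and 979.9 (1.19 ± 0.20, adjusted p = 0.00582). Of 48 risen genes that could be tested without each array in turn, these 4 kept the call every time, against 310 of 508 fallen genes.

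The other large rises rested on fewer settings. Polr2a, the largest subunit of RNA polymerase II, rose by 1.23 ± 0.24, from 1541, 2392 and 1560 to 4727, 4177 and 3843, and lost the call without WT array 1 or KO array 1. Igfbp3, an IGF-binding protein, rose by 1.23 ± 0.26, with 1.99 at its other probe set (adjusted p = 0.0454), and lost it without WT array 1 or 3. For Hmbox1, a homeobox protein that binds telomeres, the signals were 289.8, 332.6 and 306.6 in WT and 582.2, 720.7 and 894.2 in KO, a rise of 1.18 ± 0.22 that was lost without WT array 1 or KO array 3 and read 0.71 at its other probe set (adjusted p = 0.255). The remaining calls were also lost without WT array 1, most of them without further arrays too, and the highest adjusted p of each gene over these settings lay from 0.062 to 0.172. They were Timp1, a protease inhibitor (1.48 ± 0.31), Osr2 (1.43 ± 0.28), Lipg, endothelial lipase (1.42 ± 0.33), Sult1e1, the estrogen sulfotransferase (1.33 ± 0.26), Ttyh3 (1.29 ± 0.28), Creb3l1 (1.27 ± 0.32), Lrrc61 (1.23 ± 0.25) and Gm13889 (1.22 ± 0.23). Timp1 could be tested without 3 of the 6 arrays only, and Igfbp3 without 4 of them only.

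In the extracellular matrix and adhesion list 2 of 25 genes rose, Timp1 and Sdc4, 1 to 4 without any one array and 15 with the block; the list median was 0.64, with pair medians of 0.30, 0.60 and 1.00. Sdc1, another syndecan, read 0.93 ± 0.24 (adjusted p = 0.0543). Markers of somatic testis cells had positive medians as well. None of the 8 Leydig markers passed (7 rose with the block), with a median of 0.88 and a summed signal of 45299 to 90516 in WT and 69300 to 142409 in KO. None of the 16 Sertoli markers passed (8 rose with the block), with a median of 0.54, and the 19 measured summed to 79455 to 144451 in WT and 124239 to 186653 in KO. The ranges overlapped for both lists, and their part in the rises was not tested. No marker of either list was at 0, and the dimmest was Amh at 14.44 in WT array 1, named after its value was seen.

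Steroidogenesis, the work of Leydig cells, showed 0 rises and 1 fall in 14 genes, 7 rises and 2 falls with the block. Hsd3b1, which makes progesterone, read 2448, 2141 and 1033 in WT and 4148, 4658 and 2896 in KO (1.12 ± 0.34, adjusted p = 0.104). The KO arrays were higher throughout. Star, the cholesterol carrier of the mitochondrion, read 1.05 ± 0.38 with overlapping arrays (adjusted p = 0.165). Lipe, hormone-sensitive lipase, went the other way: it fell from 2413, 4154 and 2012 to 847.6, 792.6 and 818.8 (-1.71 ± 0.28, adjusted p = 0.00552), with -2.63 at its other probe set, and its WT signal was higher in round spermatids than in spermatocytes by 2.57. Cholesterol synthesis had 0 of 17 genes past the threshold, and up to 3 rose without any one array. With the block 6 rose and 1 fell, against 12.9% and 11.8% of all genes tested. Dhcr7 read 1.40 ± 0.37 (adjusted p = 0.062) and Nsdhl 0.90 ± 0.23 (adjusted p = 0.0554).

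Of 7 macrophage markers 1 fell, Aif1, by 2.27 ± 0.30, from 4767, 3928 and 7371 to 1430, 1003 and 833.8, and the median of the list was 0.50. Of 7 peritubular muscle markers 1 fell, Actg2, an enteric actin, at -1.76 ± 0.26, with a list median of 0.39. Both genes were higher in WT round spermatids than in WT spermatocytes, by 2.55 and 2.51. This did not set them apart within their lists. C1qa (3.22), C1qc (2.82), Mrc1 (1.80), Myl9 (1.67) and Myh11 (1.28) were also higher there and did not pass, and Mylk (-0.30) was lower. Over all 13 macrophage markers measured the summed signal was 10417 to 11471 in WT and 5646 to 11810 in KO, and over all 9 peritubular markers it was 7490 to 15772 and 11420 to 19397. Among 10 endothelial and 4 erythroid markers 1 each was bright enough to be tested, and neither passed; sums over all markers measured overlapped, at 866.4 to 1147 and 1089 to 1461 for the first and 292.4 to 990.1 and 489.9 to 794.4 for the second. Gata4 (1.24 ± 0.49), Fabp3 (0.82 ± 0.28), Cldn11 (0.59 ± 0.26) and Cst12 (0.56 ± 0.26), markers of Sertoli or Leydig cells, did not pass.

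Apoptosis and stress genes showed no common shift past the threshold. Of 20 apoptosis and NF-kB genes 1 fell, Bcl2l14, a member of the Bcl-2 family, from 5329, 6040 and 5626 to 1364, 1145 and 847.4 (-2.35 ± 0.23, adjusted p = 0.000509). The separation was complete at this probe set, and the other one read -0.70 (adjusted p = 0.161). None of 14 immediate early and stress genes passed. With the block 5 rose and 2 fell, against 12.9% and 11.8% of all genes tested. Gadd45b, a growth arrest gene, read 406.8, 284.2 and 146.1 in WT and 903, 864.9 and 396.4 in KO (1.34 ± 0.41, adjusted p = 0.104). Its groups overlapped, and it passed when KO array 3 was left out.

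The arrays of purified WT cells, which the comparison of polysomes did not use, show in which cell fraction these transcripts were brighter. Some somatic markers were brighter in the round spermatid than in the spermatocyte fraction, such as C1qa (3.22), Cst12 (1.96) and Myl9 (1.67). The Leydig markers Fabp3 (-3.10) and Hsd3b1 (-2.14) were dimmer there. A difference between these fractions therefore does not give the cell of origin. Of the 525 fallen genes 481 (91.6%) were at least 2-fold brighter in WT round spermatids than in WT spermatocytes, against 17.7% of all genes tested and 6 of the 52 risen genes (11.5%). Only 1 of the fallen genes, against 24.3% of all, had the opposite pattern. Grouped by the size of this excess in the round spermatid fraction, the share that fell in polysome RNA climbed. It was 41 of 2268 genes (1.81%) at a log2 excess of 0 to 1 and 143 of 1053 (13.6%) at 1 to 2. At 2 to 3 it was 287 of 501 (57.3%), and at 3 or more 51 of 57 (89.5%). Below 0, where spermatocytes were brighter, 3 genes fell: Grtp1 (-1.43 ± 0.27), Mrs2 (-0.81 ± 0.20) and Herpud1 (-0.90 ± 0.20). Grtp1 lost its call without WT array 1 or KO array 1, and the others without any one array but WT array 2. These counts describe the genes and were not tested.

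Of the 6 genes with an excess of 3 or more that did not pass, C1qa, C1qb, Lyz1 and Ctss are known from macrophages. They read 0.64 ± 0.44, 0.30 ± 0.37, -0.09 ± 0.42 and -0.48 ± 0.37. Epb41l3, a cytoskeletal linker, read 0.17 ± 0.22, and Dlgap4, a scaffold protein, -1.08 ± 0.29 (adjusted p = 0.063; 0.000337 with the block). These 6 and the 3 in the sentences above were named after their values were seen. In the Leydig fraction, 0 of the 525 fallen genes and 16 of the 52 risen genes (30.8%) were at least 2-fold above the mean of the WT germ cell fractions, against 7.4% of all genes. The reverse pattern was held by 0 and 1 gene, against 0.143% of all genes, too rare for the 0 to tell anything. In the fallen genes the WT Leydig fraction differed from that mean by a median of -0.01 (0.08 over all genes). Their median KO minus WT in the Leydig fraction was -0.66 (0.02 over all genes), so that fraction also held these transcripts.

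**Figure D4:**
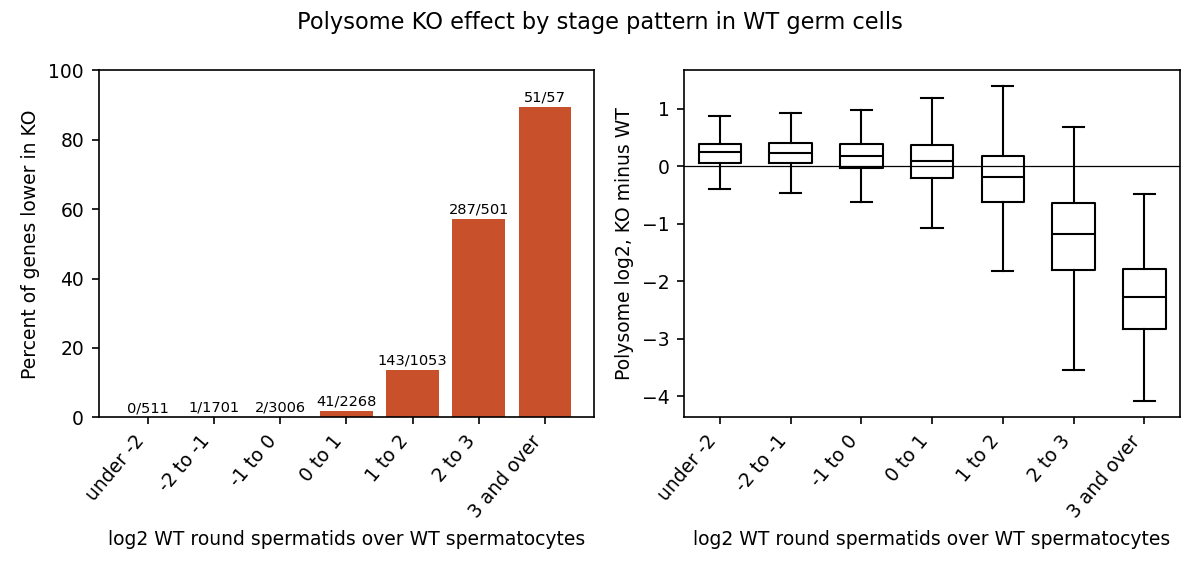
Genes tested, grouped by the log2 excess of WT round spermatids over WT spermatocytes; left, percent of each group called lower in KO polysome RNA, with counts above the bars; right, polysome log2 difference, with boxes between the quartiles, a line at the median and whiskers to 1.5 box lengths. The share called lower climbs from 0 of 511 to 51 of 57, and the median falls to -2.27.

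Several gene families, picked after their values were seen, were counted separately. All 4 tested Cypt genes, which encode cysteine-rich proteins of the perinuclear theca, fell: Cypt12 by 2.84 ± 0.25, Cypt3 by 2.22 ± 0.36, Cypt1 by 2.13 ± 0.33 and Cypt4 by 0.79 ± 0.20. Cypt4 was also the dimmest of them, at 864.5, 976.6 and 973.3 in WT and 525.9, 600.9 and 479.6 in KO, and lost its call without any one of the 6 arrays (adjusted p up to 0.165). All 4 tested Iqcf genes, with calmodulin-binding IQ motifs, fell: Iqcf3 by 2.08 ± 0.22, Iqcf4 by 1.57 ± 0.28, Iqcf1 by 1.53 ± 0.30 and Iqcf5 2.84-fold; the call of Iqcf1 was lost without 3 of the arrays in turn. Of 18 Prss serine proteases 8 fell, of 19 Spata genes 7 and of 30 Tex genes 11, against 5.77% of all genes tested. There were falls in 0 of 42 Eif, 0 of 20 Rps and 0 of 20 Rpl genes.

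Round spermatids of the same genotypes were measured on 6 other arrays, so the knockout effect in polysome RNA could be set against that in the cells. Of the 525 fallen genes 516 (98.3%) were also below WT in KO round spermatids, against 35.5% of all genes tested, and 192 (36.6%) were at least 2-fold below, against 3.08%. In KO spermatocytes 490 (93.3%) were below, against 41.7%, and 56 (10.7%) at least 2-fold, against 0.747%. The median difference of the fallen genes was -0.84 in round spermatids and -0.49 in spermatocytes, compared with -1.56 in polysome RNA. For the risen genes it was 0.49, 0.26 and 1.09. Both sets were chosen by their polysome values, so a larger size there is partly built in.

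The difference between the polysome and the round spermatid effect, tested as an interaction, passed in 254 of 9097 genes (2.79%). The polysome effect was the lower one in 205 (2.25%) and the higher one in 49 (0.539%), and 117 of the 525 fallen genes were in the first group. The same polysome arrays entered the call and the interaction, so this overlap is partly built in. With the block 1402 genes passed. Leaving out 1 of the round spermatid arrays left 70 to 113, and without WT polysome array 2 there were 725. Unlike the cells, the polysomes come from whole testis, so a difference between these sources can hold both cell content and polysome loading, which cannot be told apart here.

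Smcp had a difference of -3.22 in polysome RNA and -0.61 in round spermatids, an interaction of -2.61 ± 0.33 (adjusted p = 0.00318). Oaz3 went from -3.47 to -0.84 (-2.63 ± 0.41, adjusted p = 0.00813) and Odf1 from -2.92 to -0.60 (-2.32 ± 0.37, adjusted p = 0.0089), each a smaller change in the isolated cells. With the median of its probe sets, the interaction of Odf1 was -1.41 and did not pass (adjusted p = 0.132). It was not the only named interaction lost in that setting. Ddx25 differed by -2.37 ± 0.29 and 1700042G07Rik by -2.03 ± 0.16 (adjusted p = 0.000103). The regulators Spz1 and Fhl5 differed by -1.72 ± 0.25 and -1.87 ± 0.29. Azin2 read -2.36 and -2.07, with an interaction of -0.30 ± 0.40 that did not pass (adjusted p = 0.74), and Cpeb3 read -1.48 and -1.43 (-0.05 ± 0.30, adjusted p = 0.943).

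Among the rises, Hmbox1 was at 1.18 in polysome RNA and -0.54 in round spermatids (1.72 ± 0.31, adjusted p = 0.0138), and Sdc4 at 1.39 and 0.25 (1.14 ± 0.27, adjusted p = 0.0442). The interaction of Sdc4 was lost without any one of the round spermatid arrays and without WT polysome array 1 or 3 or KO polysome array 2 or 3 (adjusted p up to 0.132). Hmbox1 lost its interaction without WT round spermatid array 2 (adjusted p = 0.0553). Cst12, the Sertoli cystatin, was at 0.56 and -1.12 (1.68 ± 0.28, adjusted p = 0.0104). As a Sertoli marker that was brighter in the WT round spermatid than in the spermatocyte fraction (by 1.96), it need not describe spermatids. Aplp1 read 1.69 and 1.28, and Trim14 1.19 and 1.05, with no interaction past the threshold (adjusted p = 0.508 and 0.759).

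**Figure D5:**
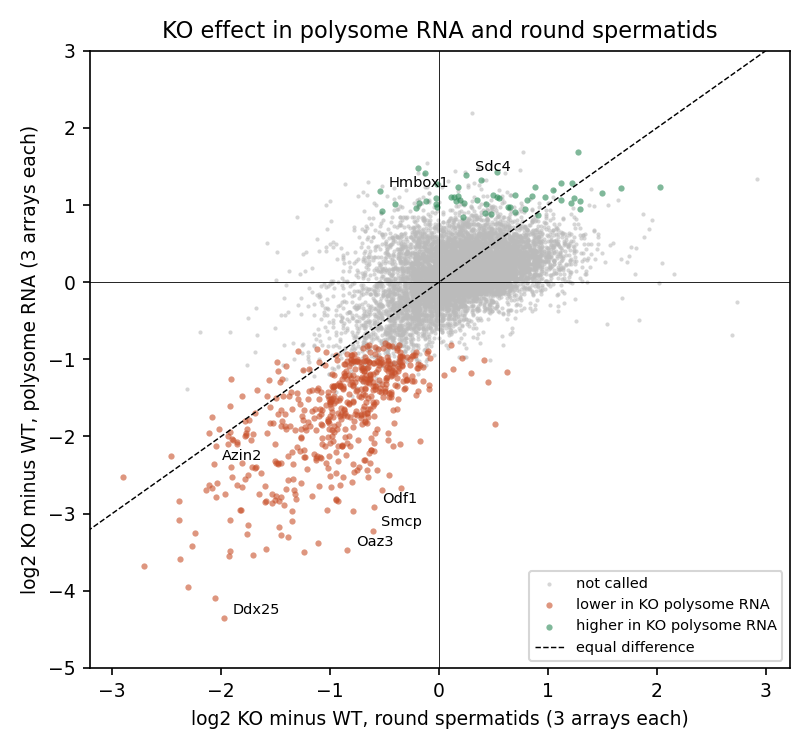
Log2 difference between KO and WT in polysome RNA against that in round spermatids, one point per gene tested, 3 arrays per genotype in each source; the dashed line marks equal differences. Most genes called lower in polysome RNA lie left of 0 and below the line, with Smcp, Oaz3 and Odf1 far below it and Azin2 close to it. The genes were called by the vertical axis, so a place below the line is partly built in.

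Polysome RNA recovered with GRTH antibody and with control IgG from WT testes (2 arrays each, not tested here) gives a further description. These 4 arrays had actin 3' to 5' ratios of 3.81 to 12.8, and the description of IgG array 1 names the GRTH antibody. Among the 525 fallen genes 8 (1.52%) were at least 2-fold brighter with the antibody, against 5.94% of all genes tested, and 64 (12.2%) at least 2-fold dimmer, against 10.1%. The risen genes had 3 and 4 of 52 (5.77% and 7.69%). With IgG array 2 alone as the control, 27 of the fallen genes (5.14%) were brighter, against 6.85% of all genes, and 55 (10.5%) dimmer, against 16.8%. The risen genes then had 7 (13.5%) brighter and 18 (34.6%) dimmer. The shares thus rested largely on which IgG array was used.

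Of the fallen genes 433 had at least 1 start site in the RefSeq promoter table (build GRCm38.p6), and of the risen genes 34. The 250 bases before the start are printed for every gene with exactly 1 start site in the table among the 14 largest falls after Ddx25 (9 genes) and among the 4 rises that kept their call without each array in turn (3 genes). They are shown for the density of the CpG dinucleotide, marked in capitals, which varies within each group: Tssk6 and Tssk3 hold more than the other falls. The falls are 1700042G07Rik at chr4:116173122-116173371 (plus strand, 2 CpG), 1700012A03Rik at chr6:32050038-32050287 (plus strand, 2 CpG), Cabs1 at chr5:87979201-87979450 (plus strand, 0 CpG), Prm3 at chr16:10790915-10791164 (minus strand, 2 CpG), Tssk6 at chr8:69901934-69902183 (plus strand, 13 CpG), Tssk3 at chr4:129490771-129491020 (minus strand, 9 CpG), H2al2a at chr2:17996959-17997208 (minus strand, 0 CpG), Lelp1 at chr3:92142755-92143004 (minus strand, 0 CpG) and Rnf133 at chr6:23650306-23650555 (minus strand, 1 CpG). The rises are Aplp1 at chr7:30445583-30445832 (minus strand, 20 CpG), Sdc4 at chr2:164443189-164443438 (minus strand, 19 CpG) and Mbnl2 at chr14:120275419-120275668 (plus strand, 10 CpG).
1700042G07Rik: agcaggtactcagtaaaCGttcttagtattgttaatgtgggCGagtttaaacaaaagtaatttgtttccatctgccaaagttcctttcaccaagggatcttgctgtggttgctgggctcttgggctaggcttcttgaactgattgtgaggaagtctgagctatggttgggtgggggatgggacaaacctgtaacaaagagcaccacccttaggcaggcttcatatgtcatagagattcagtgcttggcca
1700012A03Rik: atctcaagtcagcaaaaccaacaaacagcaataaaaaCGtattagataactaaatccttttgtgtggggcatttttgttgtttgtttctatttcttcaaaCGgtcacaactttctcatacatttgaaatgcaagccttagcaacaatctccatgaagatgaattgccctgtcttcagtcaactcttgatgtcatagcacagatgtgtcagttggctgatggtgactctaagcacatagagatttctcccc
Cabs1: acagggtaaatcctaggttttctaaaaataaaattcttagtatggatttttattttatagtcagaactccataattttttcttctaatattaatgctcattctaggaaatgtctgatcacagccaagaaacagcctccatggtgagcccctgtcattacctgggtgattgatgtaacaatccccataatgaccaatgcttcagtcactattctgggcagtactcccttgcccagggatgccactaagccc
Prm3: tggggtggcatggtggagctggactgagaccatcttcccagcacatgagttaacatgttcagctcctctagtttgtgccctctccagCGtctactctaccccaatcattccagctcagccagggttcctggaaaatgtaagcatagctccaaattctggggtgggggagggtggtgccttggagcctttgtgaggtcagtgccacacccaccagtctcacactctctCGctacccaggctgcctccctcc
Tssk6: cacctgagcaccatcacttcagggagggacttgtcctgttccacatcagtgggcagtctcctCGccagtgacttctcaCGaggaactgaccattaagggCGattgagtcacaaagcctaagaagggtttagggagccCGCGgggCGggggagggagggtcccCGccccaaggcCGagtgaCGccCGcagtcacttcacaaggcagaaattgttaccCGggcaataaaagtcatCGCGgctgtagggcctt
Tssk3: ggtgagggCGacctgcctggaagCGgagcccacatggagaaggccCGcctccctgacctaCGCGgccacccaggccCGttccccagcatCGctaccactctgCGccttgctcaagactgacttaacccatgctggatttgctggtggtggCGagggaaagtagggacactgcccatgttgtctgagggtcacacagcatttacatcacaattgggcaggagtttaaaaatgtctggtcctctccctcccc
H2al2a: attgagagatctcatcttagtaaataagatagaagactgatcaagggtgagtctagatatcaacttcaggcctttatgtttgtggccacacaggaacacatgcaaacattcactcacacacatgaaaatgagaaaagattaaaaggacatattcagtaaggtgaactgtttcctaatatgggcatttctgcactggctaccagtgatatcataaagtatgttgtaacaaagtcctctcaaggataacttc
Lelp1: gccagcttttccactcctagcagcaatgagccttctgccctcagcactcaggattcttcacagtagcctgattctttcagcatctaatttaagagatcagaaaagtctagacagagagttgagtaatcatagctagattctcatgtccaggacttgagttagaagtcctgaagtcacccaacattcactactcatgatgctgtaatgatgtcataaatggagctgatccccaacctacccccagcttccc
Rnf133: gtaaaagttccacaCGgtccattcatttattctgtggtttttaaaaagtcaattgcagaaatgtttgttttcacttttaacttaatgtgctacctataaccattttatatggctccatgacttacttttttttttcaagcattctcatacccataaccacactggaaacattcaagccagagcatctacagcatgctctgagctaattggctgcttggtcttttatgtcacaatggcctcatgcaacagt
Aplp1: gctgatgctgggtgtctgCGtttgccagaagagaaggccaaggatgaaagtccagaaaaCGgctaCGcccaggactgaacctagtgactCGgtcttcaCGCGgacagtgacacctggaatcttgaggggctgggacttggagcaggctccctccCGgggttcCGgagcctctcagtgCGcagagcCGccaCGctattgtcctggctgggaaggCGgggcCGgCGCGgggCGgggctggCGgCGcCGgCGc
Sdc4: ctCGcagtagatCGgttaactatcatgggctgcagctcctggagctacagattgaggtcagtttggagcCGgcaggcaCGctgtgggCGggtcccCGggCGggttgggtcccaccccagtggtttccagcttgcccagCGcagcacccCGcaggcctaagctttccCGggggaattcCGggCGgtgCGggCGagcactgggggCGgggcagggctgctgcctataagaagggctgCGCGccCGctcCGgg
Mbnl2: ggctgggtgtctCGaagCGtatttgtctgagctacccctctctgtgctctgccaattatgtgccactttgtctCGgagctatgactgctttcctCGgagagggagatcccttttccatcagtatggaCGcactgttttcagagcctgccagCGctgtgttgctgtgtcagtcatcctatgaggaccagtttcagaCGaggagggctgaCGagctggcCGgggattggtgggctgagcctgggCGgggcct

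Over all fallen genes the median was 6 CpG in these 250 bases, against 16 for the 7499 tested genes with a promoter and 16.5 for the risen genes. Fewer than 10 CpG were found in 60.7% of the fallen genes, 23.7% of tested genes, 26.5% of risen genes and 62.2% of the 32851 promoters in the table. Among tested genes at least 2-fold brighter in WT round spermatids than in spermatocytes, the median was 5.5 for the 398 that fell and 12 for the 916 not called. At a log2 excess of 1 to 2 in the round spermatid fraction it was 9 and 13.5, and at 2 to 3 it was 4.5 and 7. These values are descriptions and were not tested.

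Motif shares over the 300-base windows, from 250 bases before to 50 after the start and on either strand, were searched for 9 motifs. The palindromic cyclic AMP element TGACGTCA was present in 3.7% of the fallen genes, 3.97% of tested genes and 1.79% of all promoters, and in 0 of the 34 risen genes. The GC box GGGCGG occurred in 42.7%, 68%, 35.7% and 64.7% in the same order, and TATAAA in 12.5%, 8.33%, 13.6% and 11.8%. For the core GTTGCC the shares were 21.9%, 16.5%, 12.5% and 14.7%, and for the longer RFX half-site, which contains it, 2.31%, 0.96%, 0.563% and 2.94%. Within genes at least 2-fold brighter in round spermatids, however, GTTGCC was in 22.1% of the fallen and 20.6% of those not called, the half-site in 2.51% and 1.75%, TATAAA in 12.3% and 10.2% and GGGCGG in 41% and 61.1%. Shares of fallen against tested genes were 27.3% and 36.9% for TGACG, which lies within the cyclic AMP element, and 5.08% and 6.11% for TGACGTNA, which includes that element; over all promoters they were 20.8% and 2.93%. For CCAAT the fallen, tested and all-promoter shares were 42.3%, 43.7% and 37.4%, and for CACGTG 9.01%, 12.4% and 7.15%. A match is only a string of letters in the window.

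A second reading of many genes came from their other probe sets. Of the 525 fallen genes 169 had another probe set bright enough to be tested; in 99 of these all others had the same sign, and in 44 at least 1 other passed as well. Of 24 risen genes with another such probe set, 23 had the same sign throughout and 3 had another that passed. Read by the median of a gene's probe sets on each array, several named genes moved by more than 1.5 times: Lrrc57 (-1.83), Otub2 (-1.81), Bcl2l14 (-1.53), Ube2j1 (-1.06) and Kif17 (-0.97) still passed, Fxr1 (-0.07), Cpeb3 (-0.18) and Hmbox1 (0.71) no longer did, and Rpl41 (-0.59), Etf1 (-0.51), Bub1b (0.41), Sdc1 (0.39) and Gadd45b (0.38) had not passed before. Of the 72 named genes with a call, counted as in the next sentence, 65 could be tested with this median and 54 kept the call. The 11 that lost it had adjusted p from 0.0583 to 0.921 in limma. When the 3 arrays with conflicting descriptions were left out, which leaves 1 WT array assumed to vary like the KO arrays, 45 of 71 genes named above kept their call, not counting those of the Cypt and Iqcf families and others chosen for their values except Tssk5. The 26 that lost it, with adjusted p from 0.0514 to 0.329, were Odf2, Tssk5, Prss55, Calr3, Crisp2, Slc16a7, Adcy10, Cpeb3, Fxr1, Syce2, Lipe, Dnajb3, Hspb9, Eef1d, Azin2, Pgk2, Actg2, Osr2, Sdc4, Sult1e1, Mbnl2, Polr2a, Igfbp3, Gm13889, Trim14 and Hmbox1. Of those others, Cypt3 (adjusted p = 0.0502), Cypt4, Iqcf4, Iqcf5, Grtp1, Mrs2 and Herpud1 (0.103 to 0.299) lost it too. In the same setting falls numbered 8 in the chromatin list, 4 in the sheath and fibre list, 9 in the mitochondrial and head list, 4 among kinases, 0 in the acrosome list, 1 in the ion list, 4 in the energy list, 11 in the ubiquitin list and 2 among chaperones. Genes below the brightness filter in that setting were counted as not passing, among them Adam25 of the acrosome list. With the unscaled arrays alone, 2 of each genotype, 53 of 72 named genes kept their call. Just inside the threshold lay Emilin2 (-1.33 ± 0.33, adjusted p = 0.0496), which lost its call without any one array, and just outside it Grip1 (-1.06 ± 0.27, adjusted p = 0.0504).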

How the data were processed

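RNA from mouse testis was measured on 28 one-colour arrays; the 3 WT and 3 KO total polysome arrays were compared, and the others served for description and for the contrast with round spermatids. The authors deposited an intensity on a linear scale for each of 45101 probe sets, computed with GCOS per the submitters' processing notes, which name no version. For 24 arrays the mean after trimming a fraction of 0.02 from either tail was 500; the other 4, all total polysome arrays, had not been scaled. The small number of arrays limits the precision.

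Every array was rescaled to 500 and log2(value + 16) taken. Probe sets were named through the platform annotation (34945 had 1 symbol, 932 had several and 9160 had none; 64 control probe sets were left out), and each gene was read by its probe set of highest mean. Entrez identifiers of 34740 were found in the RefSeq gene list, and 0 symbols changed. Genes whose mean signal reached the median over genes entered limma 3.58.1 (lmFit, eBayes; R 4.3.3), Benjamini-Hochberg, threshold 0.05. The fit was checked on simulated arrays drawn independently, which does not cover the shared deviations of real arrays of the same number. Python 3.11.15, pandas 2.3.3, numpy 2.4.6 and matplotlib 3.10.9 were used for the rest.

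Genes were named by rule: Ddx25, the 15 largest rises and 15 largest falls past the threshold without overlap, and up to 4 genes per list with the smallest adjusted p; the text gives a part of them. The genes, lists and markers were chosen with earlier results of these data known. Arrays of the same number were taken as pairs because their deviations from the group means correlated (r = 0.436, 0.668 and 0.665 over genes); this pairing comes from the data, not from the labels. Promoters come from RefSeq (GRCm38.p6), 250 bases before to 50 after each start. The alternatives were other scalings, offsets, filters, probe set rules and fits, a replicate block, and leaving out arrays.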

Additional observations from a re-analysis of the deposited data

Results flagged for a closer look

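In 254 genes the knockout effect in total polysome RNA differed from that in round spermatids by the interaction test (limma, 3 arrays per genotype and source). The genes named here were chosen after their values were seen. The polysome effect was the lower one, with a log2 difference between the effects of -2.63 for Oaz3, -2.61 for Smcp, -2.37 for Ddx25, -2.32 for Odf1, -2.03 for 1700042G07Rik, -1.87 for Fhl5 and -1.72 for Spz1. It was higher by 1.72 for Hmbox1, 1.68 for Cst12 and 1.14 for Sdc4. The standard errors were between 0.16 and 0.41, and blocked on replicate number, adjusted p ranged from 0.00085 to 0.0168 for these 10. What the 2 sources differ in, whole testis polysomes against isolated cells, cannot be told apart from the knockout's effect on polysome loading.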

How the results depend on the processing

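Against 577 changed genes (52 higher, 525 lower) and 254 interactions, the counts moved as follows. The deposited scale gave 0 of each, with 72 and 6 genes at an unadjusted p under 0.05 in limma; there the unscaled arrays differ within each genotype. Without a filter there were 378 (19 higher) and 72, with all 10 groups in one fit 1272 (382 higher, 890 lower), and with array weights 1604 (751 and 853) and 1131. Median centring left 27 higher, a stricter brightness filter 33, and the median of a gene's probe sets 33 and 157 interactions; quantile normalization gave 446 interactions. Pairing arrays by number as a block gave 2248 (1173 and 1075) and 1402, and lost no call of the main comparison. Without the 3 arrays of conflicting description there were 294 (253 lower) and 1669 interactions. Chosen after seeing the data, the scaling batch as a block gave 933 (246 higher), and the unscaled arrays alone 328 (7 and 321). Leaving out 1 array gave 383 to 718 changed, 11 to 212 higher, 367 to 506 lower and 70 to 725 interactions. Odf2 reversed to 0.19 when read by the median of its probe sets on each array. The cause of these shifts was not tested. Of the other values for named genes, 1974 kept direction and side of the threshold, 233 were no longer past it and 92 newly passed.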
